A study of Mus musculus with 7 samples.

Results

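The 10 genes described here encode proteins of the primary cilium whose loss is linked to obesity. They are *Bbs1*, *Bbs2*, *Bbs4*, *Bbs5*, *Bbs7*, *Arl6*, *Adcy3*, *Ift88*, *Kif3a* and *Alms1*, chosen by name, and all 10 are among the 18331 uniquely named genes of the deposited table. The study sorted Pomc neurons and Npy neurons by fluorescence from dissociated arcuate nuclei of E15.5 mouse embryos (E, embryonic day), and each library was made from 1 ng of total RNA. The sources used here do not give genotype, strain, the fluorescent reporter or the embryos behind a replicate. Nothing therefore says that replicates came from separate litters, and each p-value measures the spread between libraries, technical or not. There are 4 Pomc libraries and 3 columns for Npy neurons, and levels are in TPM (transcript abundance scaled for gene length and library total), so that levels of different genes can be set side by side.

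The primary cilium is a single, non-motile antenna on the cell body of most neurons, and receptors and enzymes of cAMP signalling are concentrated in its membrane. Intraflagellar transport (IFT) trains, pulled by kinesin-2 motors, carry cargo into the cilium, and the BBSome, a coat complex recruited to the membrane by the small GTPase ARL6, moves membrane proteins such as receptors in and out of it. In humans, loss of BBSome subunits or of ARL6 causes Bardet-Biedl syndrome and loss of ALMS1 causes Alström syndrome, both with childhood obesity. In mice, loss of *Ift88* or *Kif3a* from adult cells or from Pomc neurons, and loss of *Adcy3*, lead to overeating and weight gain.

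All 10 genes were annotated as protein coding in GENCODE M21 (GRCm38). Their places are *Bbs1* on chromosome 19 (4886878 to 4906628), *Bbs2* on 8 (94067954 to 94098928), *Bbs4* on 9 (59321990 to 59353508), *Bbs5* on 2 (69647171 to 69667571) and *Bbs7* on 3 (36573142 to 36613477). *Arl6* lies on chromosome 16 (59612949 to 59639391), *Adcy3* on 12 (4133103 to 4213525), *Ift88* on 14 (57424062 to 57517936), *Kif3a* on 11 (53567379 to 53601967) and *Alms1* on 6 (85587531 to 85702753). Exons of 4 members share bases with a gene on the opposite strand. The partners are *Adpgk* for *Bbs4*, *Cenpo* for *Adcy3*, *Ift88os* for *Ift88* and *4930547E14Rik* for *Arl6*. The sources used here do not say whether the authors' counting used strand, so reads of these partners cannot be told apart from those of the members. *Adpgk* stood at 20.2 to 28.8 TPM and *Cenpo* at 0.82 to 4.86 TPM over the 6 libraries used below.

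Many promoters of cilium genes carry the X-box, the binding motif of the RFX factors that switch these genes on. The promoter windows of RefSeq (GRCm38.p6, 250 bases before to 50 after each start) held all 10 members by symbol, with 12 windows. The letters of both X-box arms, GTTNCC and GGNAAC with 0 to 3 bases between them, were searched; this pattern reads the same on either strand. They were found in 1 of the 10 members, *Bbs7*, in 9.57% of the 94 matched genes of the other cilium lists described below, in 1.11% of the 10056 matched tested genes and in 0.936% of all 27025 genes with a window. The match begins 121 bases before the RefSeq start. The bases of the *Bbs7* window that lie upstream of both the RefSeq and the GENCODE start are shown for this reason (chr3:36613478-36613639, minus strand), with the X-box letters in capitals.
Bbs7: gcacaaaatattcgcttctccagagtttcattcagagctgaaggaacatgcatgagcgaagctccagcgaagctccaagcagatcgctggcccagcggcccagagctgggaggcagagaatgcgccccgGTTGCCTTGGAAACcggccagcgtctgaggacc

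A single arm, GTTGCC or its complement GGCAAC, was found in 5 of the 10 members, in 36.2% of the other cilium genes and in 14.98% of tested genes; the longer pattern of *Bbs7* contains one. The other 4 members with an arm are shown with the arm in capitals and 30 bases in all, so that it can be read where it lies. It begins 98 bases before the RefSeq start of *Kif3a* (chr11:53567259-53567288, plus strand). In the others it begins after the start, at base 2 of *Bbs1* (chr19:4906609-4906638, minus strand), base 22 of *Ift88* (chr14:57424080-57424109, plus strand) and base 43 of *Bbs5* (chr2:69647191-69647220, plus strand). A match is a description of letters and does not show that a factor binds there.
Kif3a: caccccgcaggcGTTGCCccagtctagcgt
Bbs1: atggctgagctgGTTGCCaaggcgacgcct
Ift88: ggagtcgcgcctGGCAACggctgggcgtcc
Bbs5: gatgtcgtgacaaagccggcgcGTTGCCtt

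Before the results, 1 column has to be set aside. For each of the 15223 genes above 0 in the first or second Npy replicate, the value listed for Npy replicate 3 is their mean multiplied by 95 to 105 whole percent (tolerance 1e-04 percentage points). It adds no measurement, so 4 Pomc libraries were compared with 2 Npy libraries. In the direction of the labels, *Pomc* was higher in the Pomc libraries (352 to 770 against 24.0 and 59.4 TPM) and *Npy* in the Npy libraries (728 and 513 against 2.11 to 152 TPM). Short RNA genes took 9.36 to 12.01% of the Pomc libraries and 13.0 and 15.6% of the Npy libraries. TPM keep no read depth, so the depth behind each value is unknown. Genes above 0 numbered 12493 in Pomc replicate 4 and 12922 in Npy replicate 2, against 13929 to 14933 in the other libraries. Of 109 other cilium genes described below, 22 were listed at 0 in Pomc replicate 4, against 8 to 12 in the other libraries. Low values and zeros in Pomc replicate 4 and Npy replicate 2 are to be read with this limit, and its part in them was not tested.

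All 10 members were expressed in both neuron types, at 4.39 TPM or more in each of the 6 libraries, and all passed the filter of 1 TPM in at least 2 libraries. None passed the threshold of the test between 4 Pomc and 2 Npy libraries. In limma's test on log2(TPM + 1), 0 of the 10 members passed an adjusted p (Benjamini-Hochberg over all 13845 tested genes) of 0.05, and 0 passed an unadjusted p of 0.05. Over all tested genes, 0.412% were called (0.289% towards Pomc and 0.123% towards Npy neurons) and 7.36% had an unadjusted p under 0.05. The members' adjusted p ran from 0.715 to 0.975. Their log2 fold changes, Pomc minus Npy, were above 0 in 5 and below 0 in 5, with a median of -0.13; over all tested genes the median was 0.02 and 48.7% were below 0. Without Npy replicate 1 the members' median was 0.11, and without Npy replicate 2 it was -0.41. In bulk libraries, fewer cells of a type and less RNA per cell cannot be told apart.

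**Figure D1:**
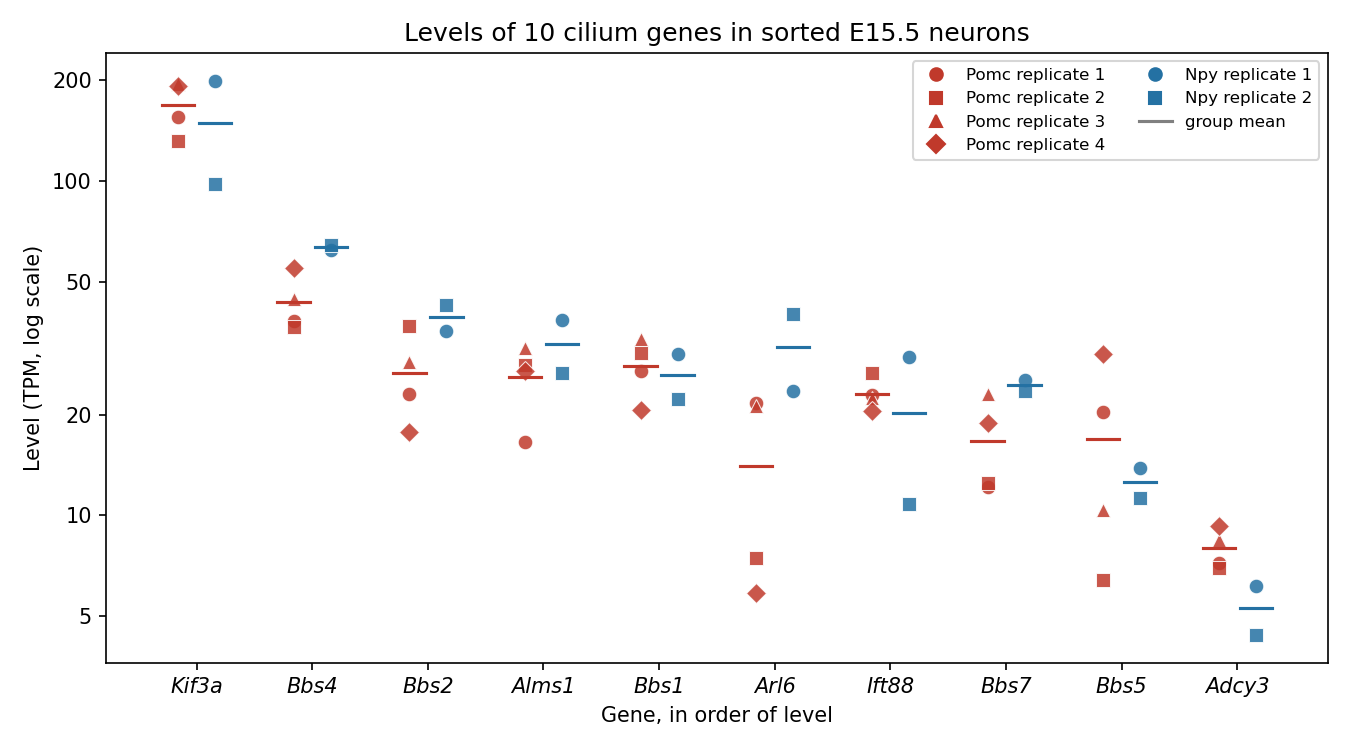
Levels (TPM, log scale) of the 10 cilium genes in the 4 Pomc (red) and 2 Npy (blue) libraries, 1 marker per library, with a bar at each group's mean. *Kif3a* lies between 97.9 and 199 TPM, above every other member in each library, and *Adcy3* between 4.39 and 9.32 TPM.

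The genes spanned a wide range of levels, and its ends were steadier than its middle. *Kif3a*, at a mean of 162 TPM over the 6 libraries, was the highest member in all 6 and exceeded 91.7% of tested genes by mean level. *Bbs4* followed at 50.1 TPM, ranked 2 in 5 libraries and 3 in Pomc replicate 2, and its range did not meet that of *Kif3a*. With equal weight for both groups, the order then ran *Bbs2*, *Alms1*, *Bbs1*, *Arl6*, *Ift88*, *Bbs7*, *Bbs5* and *Adcy3*. From *Bbs4* down, the ranges of neighbours in this order overlapped in every pair, and *Bbs2* and *Alms1*, as well as *Alms1* and *Bbs1*, exchanged places in 3 of 6 libraries. *Arl6* stood above *Ift88* in Npy replicate 2 alone (40.0 against 10.8 TPM), so its place before *Ift88* rests on that library. *Adcy3* was last in 4 libraries and second to last in 2, and stood above only 23.9% of tested genes. Summed over the 10 genes, Pomc libraries held 323 to 419 TPM and Npy libraries 464 and 344 TPM.

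Of the subunits of the BBSome coat, 5 are members. BBS1, BBS2 and BBS7 are subunits with a beta-propeller, BBS4 is made of helical repeats and BBS5 holds lipid-binding domains. *Bbs4* reached 38.1, 36.5, 44.4 and 54.9 TPM in Pomc replicates 1 to 4 and 62.0 and 64.4 TPM in Npy replicates 1 and 2. The Npy libraries lay close together and above every Pomc library, the highest of which was Pomc replicate 4. The log2 fold change was -0.55 ± 0.26 (SE), or 1.46-fold higher in Npy neurons with a 95% interval of 0.971 to 2.20, and the limma adjusted p was 0.715. It was the member with the smallest standard error.

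*Bbs2* stood at 23.1, 36.7, 28.7 and 17.7 TPM in Pomc replicates 1 to 4, against 35.6 and 42.6 TPM in Npy neurons. Pomc replicate 2 lay within the range of the Npy libraries, so the groups overlapped (log2 fold change -0.58 ± 0.36, limma adjusted p = 0.807). *Bbs7* was at 12.2, 12.5, 23.1 and 18.9 TPM in Pomc neurons and at 25.3 and 23.6 TPM in Npy neurons. Here the groups did not overlap, although Pomc replicate 3 and Npy replicate 2 differed by little (log2 fold change -0.57 ± 0.42, limma adjusted p = 0.828). For both genes the 95% interval of the Npy to Pomc ratio, 0.849 to 2.64 for *Bbs2* and 0.768 to 2.89 for *Bbs7*, includes no difference.

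*Bbs1* was nearly level between the neuron types, at 27.1, 30.5, 33.6 and 20.7 TPM in Pomc replicates 1 to 4 and 30.4 and 22.3 TPM in Npy replicates 1 and 2. Its log2 fold change was 0.08 ± 0.35 (limma adjusted p = 0.975), and the 95% interval of the Pomc to Npy ratio ran from 0.614 to 1.81. *Bbs5* varied most among Pomc libraries, at 20.4, 6.43, 10.4 and 30.3 TPM, a 4.72-fold range. Both Npy values, 13.9 and 11.3 TPM, lay inside that range. Its log2 fold change of 0.19 ± 0.62 (limma adjusted p = 0.960) turned to -0.15 without Pomc replicate 4, the library with the highest value, and that of *Bbs1* turned to -0.01 without Pomc replicate 3 and -0.14 without Npy replicate 2.

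*Arl6* encodes the GTPase that brings the BBSome to the membrane, and it had the largest fold change of the 10 members. It stood at 21.7, 7.44, 21.2 and 5.85 TPM in Pomc replicates 1 to 4 and at 23.5 and 40.0 TPM in Npy replicates 1 and 2. Pomc replicates 1 and 3 were close to Npy replicate 1, while Pomc replicates 2 and 4 were far lower, so the groups did not overlap but the gap between them was small. The level was 2.43-fold higher in Npy neurons on the log2(TPM + 1) scale, with a 95% interval of 0.934 to 6.32 (log2 fold change -1.28 ± 0.61, limma adjusted p = 0.715). Its log2 fold change ran from -1.65 without Npy replicate 1 to -0.91 without Npy replicate 2. The coefficient of variation over Pomc libraries was 61.0% for *Arl6* and 63.4% for *Bbs5*, against a median of 32.7% over all tested genes and 11.0% for *Ift88*.

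*Ift88* and *Kif3a*, the IFT and motor genes among the members, differed more within the Npy group than within the Pomc group. *Ift88*, which encodes a core subunit of the IFT-B complex, was at 22.9, 26.6, 22.4 and 20.5 TPM in Pomc neurons, against 29.7 and 10.8 TPM in Npy replicates 1 and 2. *Kif3a*, which encodes a motor subunit of kinesin-2, was at 155, 132, 195 and 192 TPM in Pomc replicates 1 to 4, against 199 and 97.9 TPM in Npy replicates 1 and 2. In both genes Npy replicate 1 held the highest and Npy replicate 2 the lowest value of all 6 libraries, a 2.76-fold and a 2.04-fold gap, against a 1.30-fold and a 1.48-fold range over the Pomc libraries. Such a gap was not particular to transport genes. From Npy replicate 1 to 2, *Pcm1* (292 and 91.8 TPM) and *Map2* (946 and 504 TPM) also fell. The IFT genes *Ift22* (44.1 and 92.4 TPM) and *Ift20* (34.1 and 76.1 TPM) rose. The log2 fold changes were 0.34 ± 0.45 for *Ift88* (limma adjusted p = 0.902) and 0.25 ± 0.29 for *Kif3a* (limma adjusted p = 0.888), and both rest on which Npy library is used. Without Npy replicate 1 they were 1.03 and 0.76, and without Npy replicate 2 they were -0.36 and -0.26. With both Npy libraries, the 95% interval of the Pomc to Npy ratio was 0.627 to 2.54 for *Ift88* and 0.752 to 1.88 for *Kif3a*.

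**Figure D2:**
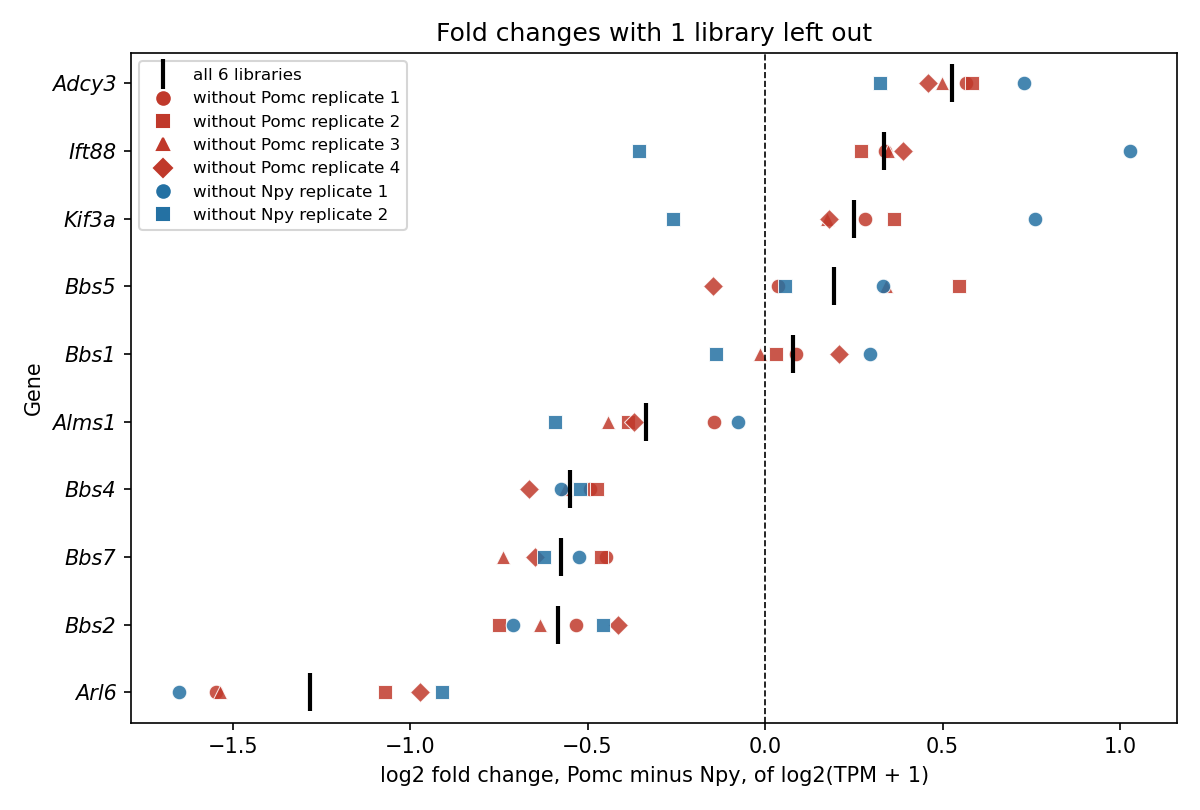
Log2 fold change (Pomc minus Npy, of log2(TPM + 1)) of each member with all 6 libraries (black bar) and with 1 library left out (red for a Pomc, blue for an Npy library, marker shape for the replicate). *Ift88* moves from 1.03 without Npy replicate 1 to -0.36 without Npy replicate 2, while *Arl6* stays between -1.65 and -0.91.

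*Adcy3* encodes adenylyl cyclase 3, the cAMP-producing enzyme of neuronal cilia. Its level was low and even, at 7.22, 6.96, 8.46 and 9.32 TPM in Pomc replicates 1 to 4 and at 6.14 and 4.39 TPM in Npy replicates 1 and 2. Both Npy libraries lay below every Pomc library. The level was 1.44-fold higher in Pomc neurons with a 95% interval of 0.617 to 3.36 (log2 fold change 0.53 ± 0.54, limma adjusted p = 0.870). The scale understates the change of a gene at this level, and with a pseudocount of 0.01 in place of 1 the log2 fold change was 0.61. *Alms1*, whose product sits at the base of the cilium, was at 16.6, 28.1, 31.7 and 27.1 TPM in Pomc replicates 1 to 4 and 38.5 and 26.6 TPM in Npy replicates 1 and 2, and the groups overlapped (log2 fold change -0.33 ± 0.37, limma adjusted p = 0.880). Its log2 fold change was -0.14 without Pomc replicate 1, the lowest library, and -0.08 without Npy replicate 1.

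**Figure D3:**
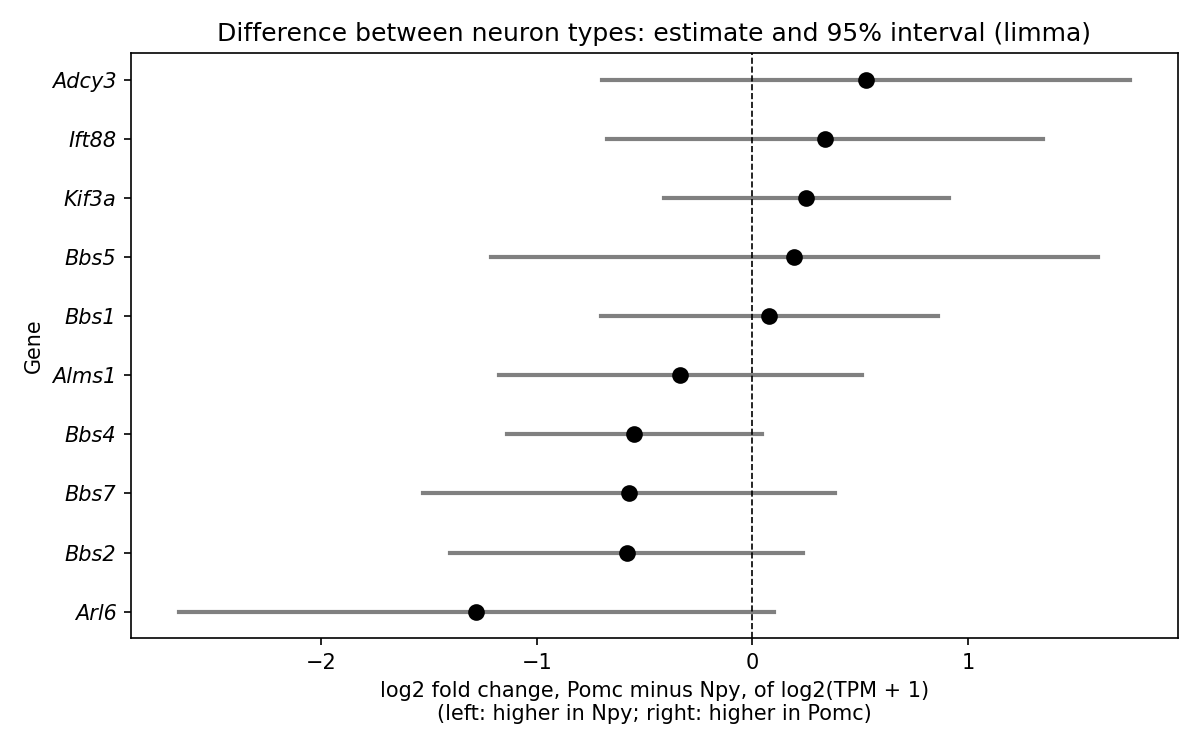
Log2 fold change (Pomc minus Npy, of log2(TPM + 1)) of the 10 members with its 95% interval from limma, ordered by size. Every interval includes 0, and the widths differ, from *Bbs4* (-1.14 to 0.04) to *Bbs5* (-1.21 to 1.60) and *Arl6* (-2.66 to 0.10).

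The groups did not overlap in 4 of the 10 members, a share to be read against 15.9% of all tested genes. *Bbs4*, *Bbs7* and *Arl6* were higher in both Npy libraries than in any Pomc library, as were 7.86% of tested genes. *Adcy3* was higher in all Pomc libraries, as were 8.05% of tested genes. No library stood at 1 end for most members. Npy replicate 1 held the highest value of 4 members and the lowest of none, Npy replicate 2 the highest of 3 and the lowest of 3, and Pomc replicate 4 the highest of 2 and the lowest of 3.

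Genes outside the 10 with a similar course over the 6 libraries were named by a correlation of log2(TPM + 1), given as a description. For the mean of the members they were *Sdcbp* (Pearson's r = 0.97), *Taok3* (0.97) and *Rdh10* (0.97), and 72 tested genes exceeded 0.9. For *Adcy3* alone they were *Atg14* (r above 0.99, at 13.8 and 10.3 TPM in Npy and 15.3 to 20.4 TPM in Pomc libraries), *Mms19* (0.99) and *Tma7* (0.99), and 283 tested genes exceeded 0.9. The points share their library, its composition and its scaling.

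The rest of the ciliary machinery was described with 8 lists of 112 gene symbols, of which 97 were tested. None of the 97 passed the adjusted threshold by limma, 7 had an unadjusted p under 0.05 (7.36% of all tested genes did), and 57 log2 fold changes were below 0, with a median of -0.07. The groups did not overlap in 20 of the 97, beside 15.9% of all tested genes. The most abundant gene of a list is named by its mean over the 6 libraries. Of the 11 other BBSome subunits, assembly factors and BBS-linked genes, 8 were below 0 (median -0.14). The E3 ligase gene *Trim32* had the highest mean over the 6 libraries (94.5 TPM, close to 93.1 TPM for *Ccdc28b*, which was higher in the Npy mean), at 59.2 to 136 TPM in Pomc and 94.0 and 116 TPM in Npy neurons, and the largest change was that of *Wdpcp* (log2 fold change -1.35 ± 0.95, limma adjusted p = 0.820). Of *Bbs10*, a chaperonin-like assembly factor, Pomc libraries held 0 to 7.47 TPM and Npy libraries 2.78 and 11.6 TPM.

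Of the 16 other IFT-B genes tested, 10 were below 0 (median -0.26). *Ift22*, a small GTPase of the complex, was at 23.2 to 41.9 TPM in Pomc libraries and at 44.1 and 92.4 TPM in Npy libraries, with groups that did not overlap (log2 fold change -0.99 ± 0.37, limma adjusted p = 0.574). *Ttc26* had the next largest change (-0.78 ± 0.65), and *Ift81*, a tubulin-binding subunit, was the most abundant at a mean of 79.1 TPM in Pomc neurons. The 8 IFT-A and tubby genes split evenly, 4 above and 4 below 0, with *Ift122* (-0.54 ± 0.46) and *Wdr19* (-0.52 ± 0.43) farthest from 0. *Tub*, the gene mutated in the obese tubby mouse, stood far above any member, at 545, 778, 730 and 601 TPM in Pomc and 509 and 642 TPM in Npy neurons (limma adjusted p = 0.870).

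Among 10 other ciliary motor genes, the kinesin-2 genes *Kifap3* and *Kif3c* had means of 131 and 126 TPM over the 6 libraries. Those of *Kif3b* and *Kif17* were 51.9 and 7.28 TPM, against 162 TPM for *Kif3a*. *Kifap3*, which encodes the subunit that holds the kinesin-2 motor subunits and cargo, was at 166, 110, 125 and 155 TPM in Pomc and 145 and 83.8 TPM in Npy neurons, so that Npy replicate 2 was lowest here as it was for *Kif3a*. The dynein-2 gene *Dync2li1*, of the motor that returns trains to the cell body, was at 11.4 to 34.6 TPM in Pomc libraries and 44.3 and 44.2 TPM in Npy libraries (log2 fold change -1.10 ± 0.46, limma adjusted p = 0.650). *Tctex1d2* was listed at 25.4 TPM in Npy replicate 1 and at 0 in Npy replicate 2, which had fewer genes above 0 (12922 against 14933). Of 26 transition zone and basal body genes 14 were below 0. *Ahi1*, mutated in human Joubert syndrome, was the highest of these, at 254 to 314 TPM in Pomc libraries and 420 and 221 TPM in Npy libraries. *Cep83*, needed to dock the basal body at the membrane, was at 33.9 to 57.4 TPM in Pomc and 26.4 and 6.52 TPM in Npy neurons (log2 fold change 1.77 ± 0.50, limma adjusted p = 0.336; 2.70 and 0.0426 without Npy replicate 1). *B9d2* was listed at 0 in Pomc replicate 4, the library with the fewest genes above 0 (log2 fold change -1.75 ± 1.09).

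**Figure D4:**
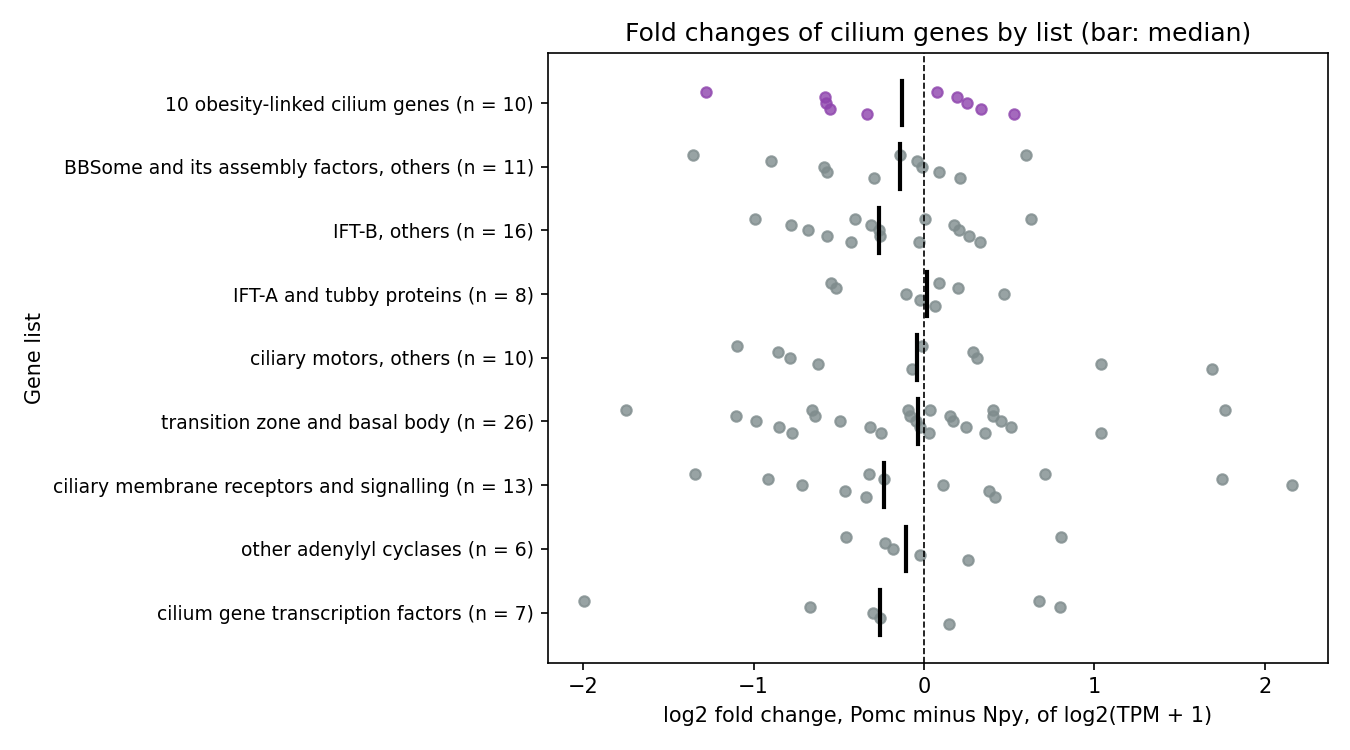
Log2 fold change (Pomc minus Npy, of log2(TPM + 1)) of the 10 members (purple) and of the tested genes of the 8 other cilium lists (grey), 1 point per gene, with a bar at each list's median. The list medians lie between -0.26 and 0.02, and no point passed the adjusted threshold.

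Several receptors that work in neuronal cilia were low in these libraries, in contrast to the machinery. *Mc4r*, the melanocortin receptor that shares cilia with ADCY3 in mouse neurons, was listed at 0 in 4 of the 6 libraries and reached 0.357 TPM in Pomc replicate 3 and 4.46 TPM in Npy replicate 1; it was singled out after its values were seen, and it did not meet the filter. *Htr6*, a ciliary serotonin receptor, was at 4.90, 10.4, 0.393 and 3.24 TPM in the Pomc libraries against a listed 0 in each Npy library (limma adjusted p = 0.616), and the same held for *Prlhr*, at 0 to 10.3 TPM in Pomc neurons. *Arl3*, a GTPase that releases lipidated cargo in cilia, was the most abundant of the 13 tested genes of this list, at 191 to 262 TPM in Pomc and 277 and 278 TPM in Npy neurons (limma adjusted p = 0.840), and 7 of the 13 were below 0. Of 6 other adenylyl cyclase genes tested, *Adcy5* was the highest, at 26.1 to 47.6 TPM in Pomc and 51.2 and 58.0 TPM in Npy neurons. *Adcy1* was at 7.91 to 15.7 TPM against 5.62 and 6.23 TPM (limma adjusted p = 0.808), and so stood near the level of *Adcy3*. Among RFX and related factors, *Rfx3*, a ciliogenic factor, was at 56.4 to 95.8 TPM in Pomc and 77.8 and 65.5 TPM in Npy neurons. Its mean over the 6 libraries, 77.7 TPM, was close to that of *Rfx7* (76.6 TPM), which had the higher mean in Pomc neurons (87.3 against 80.7 TPM). *Rfx4* reached at most 0.526 TPM in the Pomc libraries and 3.41 and 3.48 TPM in the Npy libraries (log2 fold change -1.995 ± 0.63, limma adjusted p = 0.432), and *Rfx2* had a log2 fold change of 0.80 ± 0.58.

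Some marker genes of other cell types differed between the groups, above all those of the oligodendrocyte lineage. Of 9 oligodendrocyte lineage genes, 6 were called higher in Npy neurons by limma, beside 0.123% of all tested genes. These 6 (*Pdgfra*, *Olig1*, *Olig2*, *Sox10*, *Gpr17* and *Cspg4*) would not have met the filter on the Pomc libraries alone. Their calls are therefore given as a description only. In Pomc libraries *Olig1* reached at most 2.43 TPM and *Pdgfra* at most 0.484 TPM, and *Cspg4* and *Olig2* were listed at 0 in all. The 9 genes summed to 307 and 283 TPM in the Npy and 97.1 to 117 TPM in the Pomc libraries. The 14 cell division genes summed to 185 and 140 TPM in the Npy and 50.3 to 122 TPM in the Pomc libraries, with 13 of 14 below 0 and none past the adjusted threshold. The 12 neuronal genes summed to 4915 and 4106 TPM against 5434 to 6939 TPM, with 0 called. The 17 motile cilium genes in the table summed to 198 and 200 TPM in the Npy and 150 to 229 TPM in the Pomc libraries, 0 of 13 tested were called, and *Foxj1*, which switches on motile cilia, was at 1.43 to 2.70 TPM in Pomc and 2.33 and 4.81 TPM in Npy libraries. Of 11 tested radial glia, tanycyte and astrocyte genes, *Sox2* was called higher in Pomc neurons and the other 10 were not called. Of the 11, 7 had log2 fold changes below 0, and *Fabp7* was at 323 and 176 TPM in Npy and 1.61 to 61.6 TPM in Pomc libraries (log2 fold change -3.89, limma adjusted p = 0.272). The list summed to 707 and 515 TPM in the Npy and 535 to 909 TPM in the Pomc libraries. Without *Cspg4*, which is also an oligodendrocyte lineage gene, the 7 endothelial and pericyte genes summed to 3.44 and 8.71 TPM in the Npy libraries, within the 1.31 to 11.7 TPM of the Pomc libraries. In the same order, microglia genes summed to 5.27 and 9.97 TPM against 0 to 43.0 TPM, pituitary genes to 1.76 and 2.76 TPM against 0 to 9.30 TPM and red blood cell genes to 1.31 and 0 TPM against 0 to 88.8 TPM. Pomc replicate 4 held the highest Pomc sums of the microglia, red blood cell, radial glia, cell division and oligodendrocyte lists. Its sums of endothelial and pituitary genes were the lowest. Outside this library, the microglia sum reached at most 3.12 TPM in Pomc libraries. The part of these cells in the levels of the 10 members was not tested.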

How the data were processed

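The deposited table lists 18335 gene symbols in 7 sample columns, and its header names no unit. The authors' values were read as TPM because 6 columns sum to 1000000, a total that does not by itself show scaling for gene length. The submitters' processing notes name HISAT2, edgeR 3.8 and mm10, without saying what each was used for. Nothing used here names the counting tool or annotation. The 4 rows of repeated date-like symbols were left out. Genes with at least 1 TPM in at least 2 of 6 libraries (13845) were tested with limma 3.58.1 in R 4.3.3 (trended prior variance) on log2(TPM + 1), two-sided, with Benjamini-Hochberg adjustment and a threshold of 0.05. Fold changes are on this scale, and ± is the standard error. Alternatives were leaving out each library, all 7 columns, a replicate block, 2 other pseudocounts, 2 filters, an untrended prior and 2 scalings. The fit was tested on simulated data.

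All members were to be named, and of each other cilium list any called gene, the 2 tested genes with the largest absolute change and the gene with the highest mean, plus the 3 closest genes by correlation. The members and lists were chosen with earlier results of these data known. A few further genes are named for comparison after their values were seen. TPM keep no depth, so counting error could not be given.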

Additional observations from a re-analysis of the deposited data

Results flagged for a closer look

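In 35 of the named genes and 5 library measures, the Pomc library farthest from the other 3 was set against the range of all 4, which chance flags in about 1 in 20. The only value that stood apart was that of *Rfx4* in Pomc replicate 3, at 0.526 TPM, while the others lay between 0 and 0.0156 TPM. All these values lie under the 1 TPM of the filter. No member was flagged.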

How the results depend on the processing

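No member passed the adjusted threshold in any of the 15 alternatives. The lowest limma adjusted p, 0.231, was that of *Bbs4* with all 7 columns, which count the computed Npy replicate 3 as a library. Of 150 member values, 144 kept their direction, and 6 members kept it throughout. Reversals were found for *Bbs5* with the replicate block (-0.10) and, with 1 library left out, for *Bbs1* (-0.14 to 0.29), *Bbs5* (-0.15 to 0.55), *Ift88* (-0.36 to 1.03) and *Kif3a* (-0.26 to 0.76); the cause was not tested. With 1 Npy library left, it is assumed to vary like the Pomc libraries.

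With 1 library left out, the median log2 fold change ran from -0.41 to 0.11 for the members, -0.44 to -0.042 for the other BBSome genes, -0.43 to 0.025 for the motors, -0.28 to 0.22 for transition zone genes and -0.34 to 0.061 for receptors. Called transition zone genes numbered 0 to 1, genes called in all 22 to 69 (57 with all libraries), and members without overlap 4 to 7, a count that can only rise with fewer libraries. With the replicate block the median was -0.25 for the members and 0.010 for receptors. It was -0.25 for the other BBSome genes with all 7 columns and 0.15 for RFX and related factors with the filter of 5 TPM in at least 3 libraries. Genes called in all numbered 57 in the main fit and 205 with all 7 columns. They numbered 12 with the replicate block, 37 and 26 with pseudocounts of 0.1 and 0.01, and 33 without a filter.

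The groups share only replicate numbers 1 and 2, which the labels do not tie to a litter or day. The plan used neuron type alone, so the numbers were not used as pairs. Differences between these numbers correlated across genes at r = -0.05 between the groups. With 1 difference per group, this value cannot show whether libraries were paired. With the block, only libraries with a shared number inform the fold change, so it rests on replicates 1 and 2 of each group. The Pomc libraries with other numbers drop out of it. No member was called in that fit (limma adjusted p = 0.9996 for each). With so few libraries left, this cannot show whether the members' calls depend on pairing. Depth is unknown, and 2 Npy libraries limit the precision.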
